A study of Mus musculus with 4 samples.

Results

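The tRNA-Ala and tRNA-Cys families are described here through the small RNA fragments that cover them in mouse bone marrow. Both were taken whole, as every position of each family's deposited table on the forward strand, which gave 80 positions for Ala and 71 for Cys. They are 2 of the 23 tRNA families analysed. The members were set by family name, because their 5′-halves are known to repress translation, and earlier results of these data were known when they were chosen.

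Small RNA libraries were made from bone marrow total RNA of C57BL/6 mice at postnatal day 8 and sequenced. Wild-type (WT) mice gave 2 libraries, and mice lacking the RNA methyltransferase Dnmt2 on both alleles (Dnmt2-/-, called Dnmt2 KO) gave 2 libraries. Every library went through Trizol extraction, DNase I, repair of fragment ends by T4 polynucleotide kinase and a size selection, so the fragment lengths that could be seen were bounded by that last step. The tables hold tRNA coverage, so neither Dnmt2 RNA nor marker genes of bone marrow were measured in them, and the genotype and tissue labels were taken as given. In bulk RNA, fewer cells of a type and less RNA per cell cannot be told apart.

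When a cell is stressed, the ribonuclease angiogenin can cut mature tRNA in the anticodon loop into a 5′ and a 3′ fragment, called tRNA-halves or tiRNAs. The 5′ fragments of tRNA-Ala and tRNA-Cys are known, from human cells, for repressing translation: they carry a run of guanines at the 5′ end, bind the protein YB-1 and displace the cap-binding complex eIF4F from messenger RNA. Shorter 5′ fragments, cut in or near the D-loop, form a separate class of tRNA fragments. Dnmt2 methylates a cytosine beside the anticodon of tRNA-Asp, tRNA-Gly-GCC and tRNA-Val, which protects these tRNAs from cleavage, and tRNA-Ala and tRNA-Cys are not among its known substrates. In the RefSeq gene names of assembly GRCm38.p6, mouse has 33 tRNA-Ala genes, 13 with the anticodon AGC, 9 with CGC and 11 with TGC, and 56 tRNA-Cys genes, all with GCA. The tables do not separate these genes, and the sources used here do not say how reads shared by several of them were counted.

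Values are coverage on the authors' scale, in which a family's total is the sum over its positions. All values above 0 were whole multiples of 1 step per library, which is read here as 1 read. Peak reads, the reads at a family's highest position, came over the 23 families to 423186 and 337091 in WT replicates 1 and 2, and to 267920 and 220277 in Dnmt2 KO replicates 1 and 2. A floor of 3 reads corresponded to a signal between 1.97e-05 and 8.41e-05 in the 4 libraries. What constant scales each library is unexplained, so levels set between libraries carry it, while shares within a family are free of it. Values per library are given below in the order WT replicate 1, WT replicate 2, Dnmt2 KO replicate 1 and Dnmt2 KO replicate 2.

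tRNA-Ala and tRNA-Cys stood next to each other in amount, at ranks 10 and 9 of the 23 families by mean total coverage. Ala coverage totalled 0.363, 0.725, 0.428 and 2.07 units, so the WT mean was 0.544 ± 0.256 (SD, n = 2) and the Dnmt2 KO mean 1.25 ± 1.16 (SD, n = 2). Cys coverage totalled 0.667, 1.08, 0.609 and 1.47 units, so the WT mean was 0.874 ± 0.294 (SD, n = 2) and the Dnmt2 KO mean 1.04 ± 0.606 (SD, n = 2). In both families the replicate 2 libraries lay above the replicate 1 libraries, and the genotypes overlapped. At its highest position the Ala family held 2325, 1988, 1383 and 3402 reads, and the Cys family 3045, 2736, 1392 and 1812. In reads, which carry the depth of each library, Dnmt2 KO replicate 2 was thus highest of the 4 libraries at the Ala peak and second lowest at the Cys peak. On the deposited scale it was highest at both peaks, with 0.0954 for Ala and 0.0508 for Cys. Within a library the Ala total was 0.544, 0.670, 0.703 and 1.41 times the Cys total, so Cys was the more covered family in 3 of 4 libraries.

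The fragments of both families were mainly 5′ fragments, but they ended in different places. Ala coverage was highest at position 12 or 13 and first fell below 50% of its peak at position 20 in all 4 libraries. Cys coverage was highest at position 12 or 14 and first fell below 50% at position 33 in all 4 libraries. Positions are those of the deposited tables, counted from 1, and the sources used here do not tie them to standard tRNA numbering. The coverage plot shows an Ala profile that is already low where the Cys profile is still near its plateau.

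**Figure D1:**
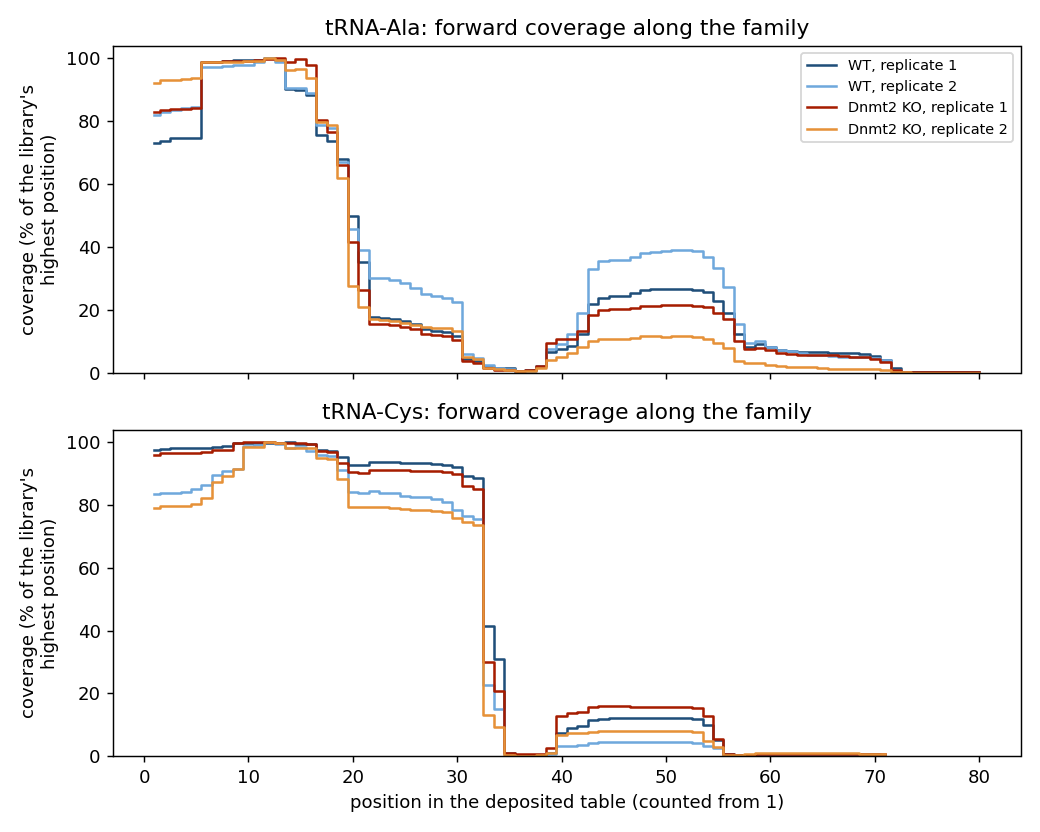
Forward coverage along tRNA-Ala (top) and tRNA-Cys (bottom), as a percentage of the highest position of the same library, against the position in the deposited table; each line is 1 library. Ala coverage falls below 50% at position 20 and Cys coverage at position 33 in all 4 libraries, both are close to 0 at position 36, and a lower separate block follows on the 3′ side.

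Most fragments of either family began at or close to the first position. Coverage of position 1, as a share of the mean of positions 10 to 14 (the start ratio), was 74.9%, 84.1%, 83.5% and 93.4% in Ala and 97.9%, 84.2%, 96.1% and 79.9% in Cys. Between the families these shares overlapped. The reads missing at position 1 joined at different places. In Ala a single step into position 6 added 557, 256, 203 and 169 reads, or 23.96%, 12.9%, 14.7% and 4.97% of the peak. It marks a second group of reads that start at position 6. Whether these fragments lack the first 5 bases of their tRNA was not tested. In Cys no such step stood out in the replicate 1 libraries, and in the replicate 2 libraries reads were added between positions 5 and 10, with 7.27% and 7.06% of the peak in the step into position 10. The relative size of the Ala group starting at position 6 was lowest in Dnmt2 KO replicate 2, and the genotypes overlapped.

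Short fragments made up most of the 5′ coverage of Ala. Between positions 16 and 22, where reads that end at positions 16 to 21 drop out, Ala coverage fell by 70.97%, 58.7%, 82.4% and 76.5% of the 5′ peak. The single largest step was the fall into position 20, which removed 418, 421, 338 and 1168 reads, or 18.0%, 21.2%, 24.4% and 34.3% of the peak. The genotypes did not overlap in the size of this step, which was also true of 27.9% of all 1515 steps between neighbouring positions over the families, and no test was run on single steps. Further falls into positions 17, 19, 21 and 22 show that the short Ala fragments had no single end. The same stretch of the Cys family lost 5.91%, 12.9%, 8.26% and 18.6% of the peak, most of it in the steps into positions 19 and 20.

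Half-length fragments were the minority in Ala and the rule in Cys. Of the Ala reads at position 12, coverage at position 22 kept 17.5%, 30.2%, 15.6% and 17.2%, and at position 30 it kept 11.7%, 22.4%, 10.5% and 13.1%. WT replicate 2 held the largest share at both positions, and its exact (Clopper-Pearson) 95% interval at position 30, 20.6 to 24.3%, lay above those of the other libraries, which together spanned 8.93 to 14.3%. These longer Ala fragments had an end of their own: only 37.5%, 26.9%, 36.6% and 39.01% of the coverage at position 30 was left at position 31. Past that step, 4.39%, 6.04%, 3.84% and 5.11% of the reads at position 12 were left. Such intervals and floors hold counting error only: without molecular identifiers, reads are not independent molecules.

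In Cys, coverage at position 32 still held 88.9%, 75.6%, 85.1% and 73.7% of the reads at position 12, and it then dropped within 3 positions. The fall into position 33, of reads that end at position 32, removed 1432, 1449, 766 and 1096 reads, or 47.0%, 52.96%, 55.03% and 60.5% of the peak. This step, too, is among the 27.9% in which the genotypes did not overlap. The fall into position 35, of reads that end at position 34, removed 29.9%, 14.4%, 19.8% and 8.996%, and the fall into position 34 lay between 3.75% and 10.7%. Cys fragments therefore had a main end at position 32 and a second one at position 34. The share that ended at position 32 was larger, and the share that ended at position 34 smaller, in replicate 2 than in replicate 1 of either genotype.

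**Figure D2:**
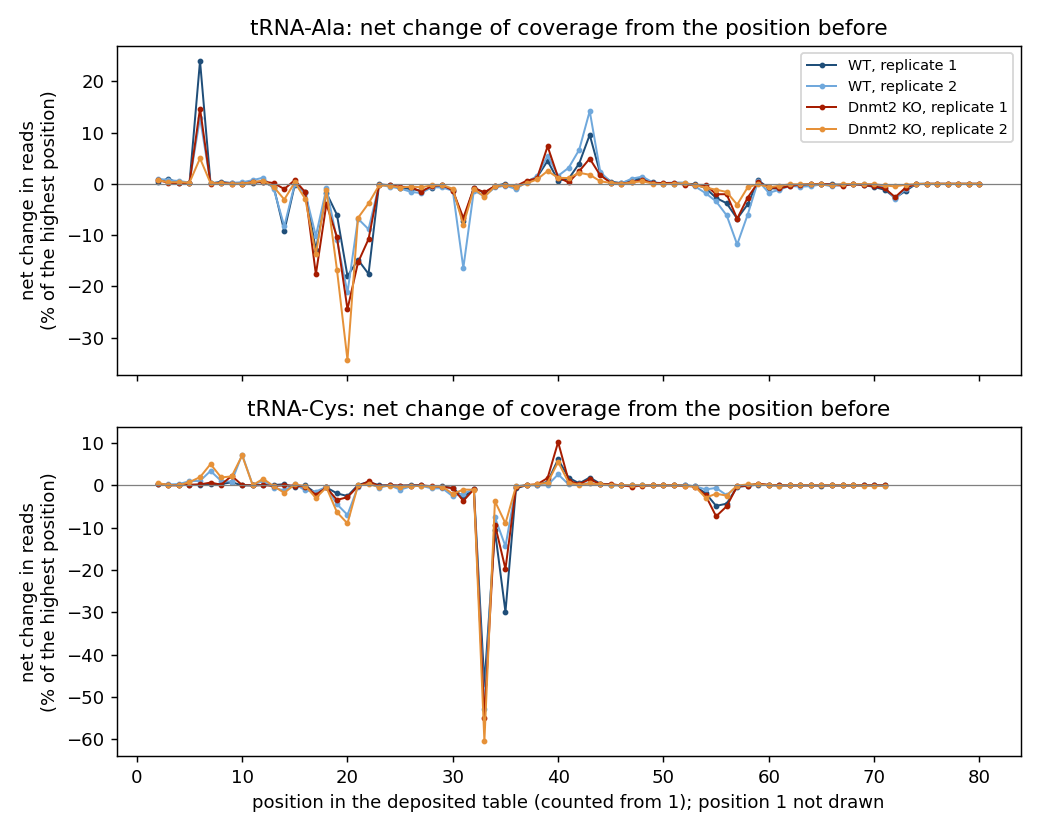
Net change of coverage from one position to the next in tRNA-Ala (top) and tRNA-Cys (bottom), in reads as a percentage of the highest position of the same library; rises mark fragment starts and falls mark fragment ends, net of each other, and each line is 1 library. Ala has its largest rise into position 6 in 3 of 4 libraries and a spread of falls with the largest into position 20, whereas Cys has one main fall into position 33, of 47.0% to 60.5%.

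**Figure D3:**
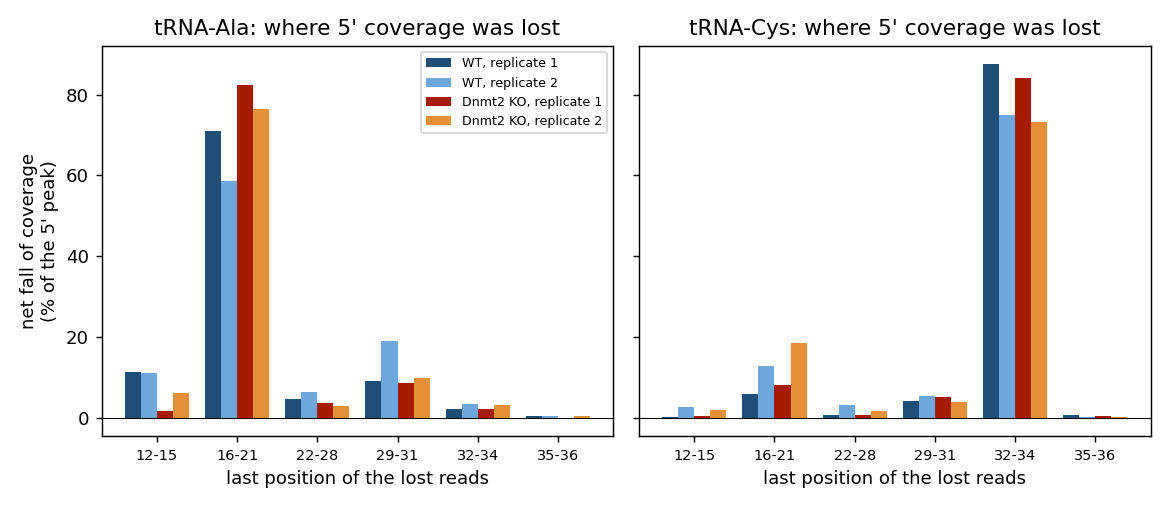
Net fall of 5′ coverage (bars, percentage of the 5′ peak, 1 bar per library) by the last position of the reads that drop out, in tRNA-Ala (left) and tRNA-Cys (right). Ala loses 58.7% to 82.4% to reads that end at positions 16 to 21, and Cys loses 73.2% to 87.6% to reads that end at positions 32 to 34.

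The ratio of mean coverage at positions 30 to 32 to that at positions 10 to 14, called the half-length ratio, put this contrast into one value. It was 6.73%, 11.4%, 5.82% and 7.55% in Ala, and 90.3%, 77.6%, 87.0% and 75.5% in Cys. The lowest Cys value was above the highest Ala value, and within a library the Cys ratio was 13.4, 6.82, 15.0 and 9.997 times the Ala ratio. On the log2 scale Ala minus Cys was −3.36 ± 0.46 (SD, n = 4 libraries), lower in Ala in 4 of 4 libraries, with an exact two-sided sign-flip permutation p of 0.12, the smallest that 4 libraries can give, and an adjusted p of 0.25 over 4 measures. With the end window at positions 27 to 29, before the Ala end at position 30, the difference was −2.42, and with positions 32 to 34 it was −3.93.

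In the start ratio and the family total the families stood closer. The difference Ala minus Cys was −0.090 ± 0.26 (SD, n = 4) for the start ratio and −0.37 ± 0.60 (SD, n = 4) for the family total on the log2 scale. Neither was distinguishable from 0, with exact sign-flip permutation p-values of 0.625 and 0.25 and adjusted values of 0.625 and 0.33.

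Both families were nearly uncovered in the anticodon loop region. Between the 5′ and the 3′ coverage the low point was position 36 in every library, with 13, 5, 5 and 14 reads in Ala and 7, 12, 8 and 4 reads in Cys, where position 37 of Dnmt2 KO replicate 2 was as low. Few reads therefore ran across this position, and nearly all 5′ and 3′ coverage came from separate fragments.

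In both families most of the 3′ coverage was lost well before the last position. Ala coverage rose in steps into positions 39, 42 and 43, stayed on a plateau at positions 43 to 55 and fell again by position 58. At its 3′ peak it held 617, 778, 299 and 394 reads. Of that peak, position 58 kept 31.3%, 24.2%, 34.8% and 26.9%, and position 70 kept 19.9%, 11.8%, 20.1% and 9.39%. At position 71, 96, 78, 48 and 26 reads were left, and at position 72 there were 33, 19, 12 and 9. At the last position, 80, Ala held 1, 0, 1 and 1 reads, which is below the floor of 3 reads.

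Cys coverage rose mainly in one step, into position 40, by 187, 71, 142 and 100 reads. That step was 6.14%, 2.595%, 10.2% and 5.52% of the Cys peak. The Cys block held at most 369, 124, 224 and 148 reads. It fell away in the steps into positions 54 to 56, and position 56 kept 4.02% to 8.06% of the 3′ peak. At the last Cys position, 71, it held 16, 10, 11 and 11 reads. So both families had a 3′ block that began shortly after position 36 and lost most of its coverage well before the end. A smaller part of the Ala block went on to position 70, and the Cys block began with a sharper edge.

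The 3′ block was larger in Ala. At its peak the Ala block stood at 26.5%, 39.1%, 21.6% and 11.6% of the 5′ peak, and the Cys block at 12.1%, 4.53%, 16.1% and 8.17%. Coverage from position 40 on, the 3′ share, was 20.2%, 24.1%, 17.4% and 9.12% of the Ala total and 5.47%, 2.49%, 7.33% and 4.53% of the Cys total. The lowest Ala share was above the highest Cys share. On the log2 odds scale Ala minus Cys was 2.04 ± 1.12 (SD, n = 4), higher in Ala in 4 of 4 libraries, with an exact two-sided sign-flip permutation p of 0.12 and an adjusted p of 0.25. Taken over the last 20 positions in place of position 40 on, the difference was 0.55 with an exact permutation p of 0.375. In Ala those 20 lie past positions 43 to 55, while in Cys they take in the end of the 3′ block. They therefore cover unlike parts of the 2 families. Positions 43 to 55 alone held 13.8%, 17.7%, 11.3% and 6.54% of the Ala total, the larger part of its 3′ share.

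**Figure D4:**
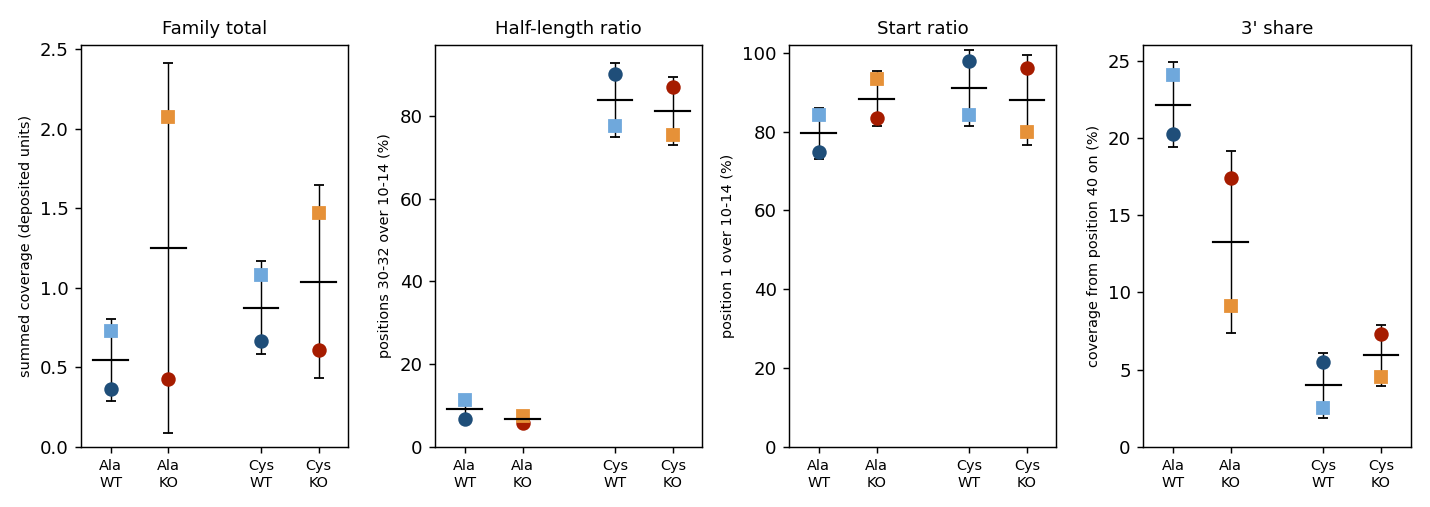
Family total, half-length ratio, start ratio and 3′ share of tRNA-Ala and tRNA-Cys by genotype; circles are replicate 1, squares replicate 2, horizontal lines the mean and vertical bars the SD of 2 libraries. The half-length ratio and the 3′ share separate Ala from Cys in all 4 libraries, and the 3′ share of Ala is the one of the 4 plotted measures in which both Dnmt2 KO libraries lie below both WT libraries.

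The question the genotypes address is whether loss of Dnmt2 altered fragments of tRNAs outside its known substrates. No measure passed an adjusted p of 0.05 in any of the 23 families by limma with Benjamini-Hochberg adjustment, 0% of families for each of the 4 measures, and none had an unadjusted p below 0.05 either. For the Ala total the Dnmt2 KO minus WT difference was 0.87 on the log2 scale (SE 0.99, 95% interval −1.57 to 3.32, limma adjusted p = 0.973), and for Cys it was 0.15 (SE 0.80, interval −1.81 to 2.12, limma adjusted p = 0.973). The median over all families was 0.47, so Ala lay 0.40 above it and Cys lay at −0.32 from it. The Ala estimate rested on Dnmt2 KO replicate 2: without that library it was −0.26. Without it the Cys estimate was −0.48, and without WT replicate 1 it was −0.20. Among replicates with the same number, the Dnmt2 KO to WT ratio of totals was 1.18 and 2.86 for Ala and 0.913 and 1.35 for Cys.

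Taken as a share of all tRNA coverage in the library, Ala was 0.414%, 0.505%, 0.390% and 1.09%, and Cys 0.761%, 0.754%, 0.555% and 0.771%. In Ala, 3 of the 4 shares lay close together and Dnmt2 KO replicate 2 stood apart. For Cys it was Dnmt2 KO replicate 1 that stood lower than the rest. Both shares overlapped between genotypes.

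In the half-length ratio no difference between genotypes was detected beyond the spread of these libraries. The half-length ratio of Ala averaged 9.05% ± 3.28 in WT libraries and 6.68% ± 1.23 in Dnmt2 KO libraries (SD, n = 2 each), a log2 difference of −0.41 (SE 0.33, interval −1.33 to 0.50, limma adjusted p = 0.711). Without WT replicate 2 the Ala estimate was −0.079, and without WT replicate 1 it was −0.75. That of Cys was 83.9% ± 8.998 and 81.3% ± 8.16 (SD, n = 2 each), a log2 difference of −0.046 (SE 0.23, interval −0.69 to 0.60, limma adjusted p = 0.961). In both families the genotypes overlapped, whereas they did not overlap in 3 of 23 families, or 13%. The start ratio differed by 0.15 in Ala (SE 0.10, interval −0.20 to 0.50, limma adjusted p = 0.899) and by −0.051 in Cys (SE 0.15, interval −0.57 to 0.46, limma adjusted p = 0.959), again with overlap in both. On the same log2 scale the 3 families without overlap in the start ratio, 13%, were Asp, Glu and Phe. As plain ratios Phe overlapped and Asn did not. For the totals the genotypes overlapped in Ala and Cys and did not in 5 of 23 families, or 21.7%.

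In net falls at the short Ala ends the genotypes did not overlap, as in several other families. The fall from position 16 to 22 averaged 64.8% ± 8.67 of the 5′ peak over the WT libraries and 79.5% ± 4.18 over the Dnmt2 KO libraries (SD, n = 2 each), without overlap. The fall from position 12 to 16 went the other way, at 11.3% ± 0.260 and 4.06% ± 3.19 (SD, n = 2 each), again without overlap. Among the 22 families with 5′ coverage in every library, 7 (31.8%) had no overlap in the first window and 5 (22.7%) in the second, so Ala was one of several in each. These windows were placed after the profiles were seen, and no test was run on them.

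Ala was 1 of the 6 families, 26.1%, whose 3′ share did not overlap between genotypes. The WT mean was 22.2% ± 2.73 and the Dnmt2 KO mean 13.3% ± 5.88 (SD, n = 2 each). On the log2 odds scale the difference was −0.96 (SE 0.69, 95% interval −2.34 to 0.42, limma adjusted p = 0.884). Leaving out Dnmt2 KO replicate 2 gave −0.42, and leaving out replicate 1 of that genotype gave −1.503. For Cys the WT mean was 3.98% ± 2.11 and the Dnmt2 KO mean 5.93% ± 1.98 (SD, n = 2 each), with overlap. The difference on the log2 odds scale was 0.65 (SE 0.69, 95% interval −0.73 to 2.03, limma adjusted p = 0.884). For the 3′ share limma gave every family this same SE, pooled over the families. These SEs, intervals and p-values therefore do not measure the spread of the Ala or the Cys values alone. Without WT replicate 2 the Cys estimate was 0.071.

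In Ala, same-numbered libraries, which the labels do not pair, held a close level in the 3′ block and not in the 5′ coverage. Mean signal at positions 43 to 55 was 0.00384, 0.00990, 0.00373 and 0.0104, so the Dnmt2 KO to WT ratio was 0.972 in replicate 1 and 1.05 in replicate 2. Mean signal at positions 1 to 12 was 0.0136, 0.0247, 0.0168 and 0.0923, with ratios of 1.24 and 3.73. Between these libraries the lower 3′ share of Ala in Dnmt2 KO thus went with more 5′ coverage on the deposited scale, most of it in Dnmt2 KO replicate 2. The levels depend on the unexplained scaling, and the ratio of the blocks to each other does not. How single Ala positions fell on other scales is given with the single positions.

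The difference between Ala and Cys in 3′ share averaged 2.85 ± 1.05 log2 units over the WT libraries and 1.23 ± 0.24 over the Dnmt2 KO libraries (SD, n = 2 each). The genotype difference of −1.62 had an exact permutation p of 0.33, the smallest that 2 against 2 libraries can give, and an adjusted p of 0.667. For the total, the half-length ratio and the start ratio the same contrast was 0.72, −0.37 and 0.20, with exact permutation p-values of 0.33, 0.667 and 0.667. A genotype effect that differs between Ala and Cys was thus not detected in a design that could not have passed the threshold.

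At single positions no difference passed limma with Benjamini-Hochberg adjustment over 1656 positions, and none had an unadjusted p below 0.05. Over all families, 283 positions (17.1%) had the 2 Dnmt2 KO libraries above the 2 WT libraries, and 5 positions (0.302%) had them below. Of the 80 Ala positions, 8 were above, positions 73 to 80, which carry at most 3 reads, and 0 were below. Of the 71 Cys positions, 17 were above, positions 39 to 54 and 71, and 2 were below, positions 33 and 34. Those 2 are among the 5 such positions in the whole series. The others were position 39 of Phe and positions 33 and 34 of Pro.

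Apart from the last position, the Cys positions where the genotypes did not overlap are the second end of the 5′ fragment and the 3′ block. At positions 33 and 34, the tail of the longer Cys 5′ fragments, mean signal was 0.00724, 0.00698, 0.00466 and 0.00575. The log2 difference was −0.45 (SE 0.64) at each of the 2 positions, with limma adjusted p-values of 0.999. At positions 39 to 54 mean signal was 0.00211, 0.00146, 0.00262 and 0.00369, and at position 40 the log2 difference was 1.04 (SE 0.66, interval −0.60 to 2.68, limma adjusted p = 0.999). At positions 45 and 51, the highest of the 3′ block in Dnmt2 KO and in WT, it was 0.78 and 0.75. At positions 1, 12 and 31, within the 5′ plateau of Cys, it was 0.11, 0.17 and 0.12.

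The share of Cys reads that ran past position 32 varied among the libraries. Of the reads at position 32, 46.9% (exact 95% interval 45.0 to 48.8%) and 29.97% (28.0 to 31.99%) went on to position 33 in the WT libraries, and 35.4% (32.6 to 38.2%) and 17.9% (15.9 to 20.1%) in the Dnmt2 KO libraries. The group means were 38.4% ± 11.98 and 26.6% ± 12.3 (SD, n = 2 each), and the genotypes overlapped. It differed more between the 2 libraries of a genotype than between the group means. As a share of the Cys total, positions 33 and 34 together overlapped as well, at 2.17%, 1.29%, 1.53% and 0.784%.

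Which positions did not overlap depended on the scale. With libraries rescaled to one total, 11.2% of the 1656 positions lay above and 8.27% below. On that scale 4 Cys positions lay above, 39, 40, 70 and 71, and 17 lay below, 1 to 6, 21 to 29, 33 and 34, so that the 5′ plateau joined the lower side and positions 41 to 54 overlapped. Of the Ala positions 10 lay above, 39, 40 and 73 to 80, and 15 below, 57 and 59 to 72. With libraries rescaled to one median family, 11.3% of all positions lay above and 15.2% below, against 0 and 0 in Cys. In Ala 21 lay above, 1 to 19, 41 and 73, and 13 below, 43 to 55. With every family brought to one total, leaving the shape of the profile, 14.7% of all positions lay above and 15.9% below. Of the Cys positions 15 then lay above, 39, 40 and 59 to 71, and 14 below, all between 5 and 32. Of the Ala positions 19 lay above, 1 to 18 and 73, and 23 below, among them 43 to 60. Cys positions 39 and 40 lay above on 3 of the 4 scales, but not on the median-family scale. They were named after these lists were seen. How many of the 1656 positions lay above on 3 of the 4 scales was not counted, so this has no background share.

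Named Ala positions had wide intervals. The log2 difference was 1.21 (SE 1.03) at position 1, 1.05 at position 6, 1.04 at position 12 and 0.54 at position 20, the position after the main short end. It was 0.79 at position 31, 0.47 at position 34 and 0.0088 at position 52, the top of the 3′ block, with limma adjusted p-values of 0.999 throughout. Estimates at positions 1, 6, 12, 20, 31, 34 and 52 were below 0 without Dnmt2 KO replicate 2.

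Among the other families, Ala and Cys were most like different ones. By Pearson's r of the mean profile over positions 1 to 70, a description over neighbouring positions of the same 4 libraries, the families most like Ala were Ser (r = 0.915), Tyr (0.853) and Val (0.836). Those most like Cys were GlyGCC (0.991), Gly_non_GCC (0.989) and Lys (0.976). The r between Ala and Cys was 0.749.

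Of the 23 families, 9 had a mean 3′ share under 25%, that is, mostly 5′ coverage. Among these, Ser and Ala had half-length ratios of 5.47% and 7.87% (means of 4 libraries), and the other 7 lay between 59.1% in Val and 103.6% in Glu. Cys was among these 7, at 82.6%. Coverage first fell below 50% at position 17 in Ser and 20 in Ala, and at positions 32 to 35 in the other 7. Among all 22 families with coverage in both windows Ala ranked 21st and Cys 11th in half-length ratio.

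**Figure D5:**
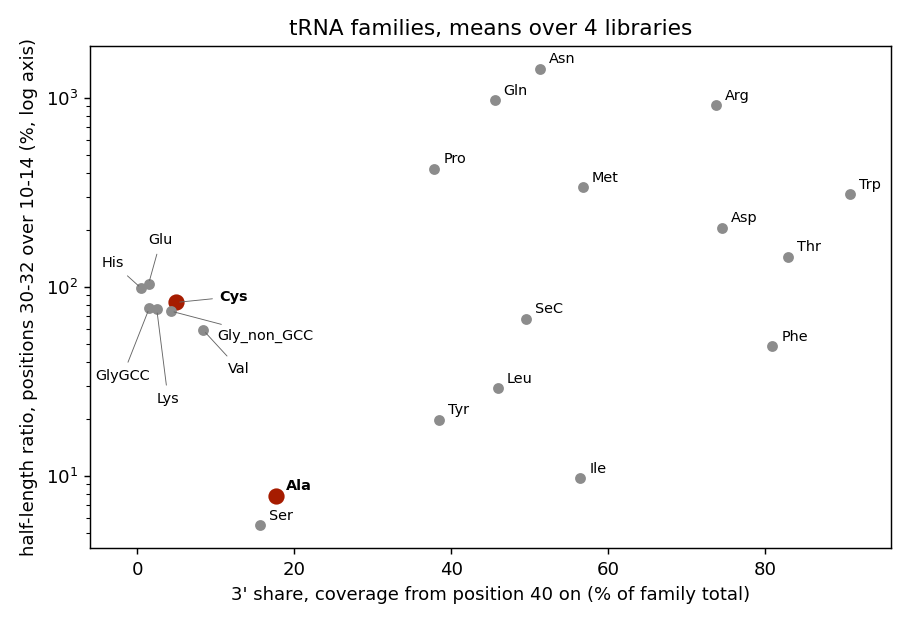
Half-length ratio (log axis, percent) against 3′ share (percent of the family total) for the 22 tRNA families with coverage in both windows; each point is a family's mean over 4 libraries and the larger red points are Ala and Cys. Cys sits with Glu, His, GlyGCC, Lys, Gly_non_GCC and Val at low 3′ share, and Ala sits next to Ser at a half-length ratio of 7.87%.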

How the data were processed

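The 48 deposited tables hold signal: per the file headers, coverage at each position of a tRNA family, by library and strand. The authors scaled each library by a constant that no source used here explains. The tools named, per the submitters' processing notes, are Bowtie and CASAVA 1.8.3; the genome build and tRNA reference were not given in the sources used here. All 9329 values above 0 (100%) were whole multiples of 1 step per library, within 0.01 of a step. Since 1 read adds to many positions, count models were not applied.

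Forward coverage of 23 families was analysed, without the combined Gly table. Family totals and positions were tested as log2(value + pseudocount), with 0.001 and 0.0001, ratios as log2 with 0.0001 added to both sides and the 3′ share as log2 odds with 0.001. Differences are on those scales and understate the change of low values. limma 3.58.1 in R 4.3.3 was fitted to all families or to the 1656 positions with coverage, with genotype as the sole term. Its tests were two-sided and Benjamini-Hochberg adjusted at 0.05. The fit was also run on simulated data with large changes and independent noise below the spread of the family totals. How it performs at the spread of these libraries was therefore not tested. Sup had no coverage in the ratio windows. Ala was compared with Cys within libraries by exact sign-flip permutation. The labels do not say that replicates are separate animals, and the p-values reflect the spread between these libraries alone, possibly a technical one.

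Named positions were 1, 12, 31, 34, the last, the highest per genotype overall and from position 40 on, and those of the largest net rise and fall. The 3 most like families were taken by Pearson's r. Other ends, blocks and windows in the text were chosen after their values were seen, and families and measures were chosen with earlier results of these data known. Alternatives tried were omission of each library, a block for the replicate number, other scalings, pseudocounts, windows and filters (a mean of at least 100 reads), and the highest position as the summary. Same-numbered libraries deviated together (correlation 0.862 over 23 family totals and 0.703 over 1656 positions), but with 2 pairs and no label this does not establish pairing. No tRNA sequences are printed, as the references used here hold none.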

Additional observations from a re-analysis of the deposited data

Results flagged for a closer look

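Reads on the reverse strand of tRNA-Ala were outside the comparisons above. At its highest position the Ala reverse strand held 41, 35, 8 and 20 reads in WT replicates 1 and 2 and Dnmt2 KO replicates 1 and 2. The 20 reads of Dnmt2 KO replicate 2 correspond to a signal of 0.000561, above the highest WT signal of 0.000473, which is why this library is listed. As a percentage of the forward peak the order was the opposite: 1.76% and 1.76% in WT, 0.578% and 0.588% in Dnmt2 KO. The highest reverse position lay at 20, 58, 14 and 59. The Cys reverse strand held 20, 28, 12 and 10 reads at its highest position, 0.552% to 1.02% of the forward peak, with no Dnmt2 KO signal above the highest WT signal.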

How the results depend on the processing

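Of 395 alternative values, 349 were labelled the same, 45 reversed and 1 moved. For limma estimates the same meant direction and side of the threshold, and no main estimate had passed it. For Ala against Cys, and the genotype effect on it, it meant direction alone. For the number past the threshold it meant an equal number. With the replicate number as a block, 2 family totals passed (Gln and His), against 0 without it, and neither Ala nor Cys was among them. Rescaling libraries to one total or one median family shifted the median family by −0.37 or −0.44. The Cys total turned to −0.21 or −0.29, Ala position 52 to −0.35 or −0.42, and Cys positions 1, 10, 12 and 31 to −0.25, −0.20, −0.20 and −0.24 or to −0.32, −0.27, −0.27 and −0.32. With each family rescaled to one total, Ala positions 20, 31, 34 and 52 turned to −0.33, −0.049, −0.31 and −0.86, and Cys positions 1 and 31 to −0.040 and −0.033. Summarised by the highest position, the Ala against Cys total was 0.018. The cause of these reversals was not tested, apart from the removal of the family or library level by the rescaling itself.

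Leaving out 1 library at a time gave −0.26 to 2.01 for the Ala total and −0.48 to 0.79 for the Cys total. The Ala half-length ratio ranged from −0.75 to −0.079, the Cys half-length ratio from −0.16 to 0.064 and the Cys start ratio from −0.18 to 0.082. The range was −0.057 to 2.48 at Ala position 1, −0.14 to 2.24 at 6, −0.16 to 2.23 at 12, −0.35 to 1.44 at 20, −0.53 to 2.11 at 31, −0.60 to 1.54 at 34 and −0.73 to 0.75 at 52. It was −0.48 to 0.71 at Cys position 1, −0.56 to 0.89 at 10, −0.57 to 0.90 at 12 and −0.51 to 0.75 at 31. Ala against Cys in the start ratio ranged from −0.20 to 0.0067, and the genotype effect on it from −0.011 to 0.42 for the start ratio and −0.81 to 0.076 for the half-length ratio. A lone library in a group was assumed to vary like the other group. The 3′ share kept its sign throughout, from −1.503 to −0.42 in Ala and from 0.071 to 1.24 in Cys. Positions with up to 3 reads, such as Ala 73 to 80, are at the limit of this depth.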
